A study of Homo sapiens with 65 samples.

Results

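The comparison described here is day 4 against day 2 of the endoderm protocol. Its members were chosen by sample title as the 3 unsorted endoderm libraries of day 4 and the 3 of day 2, 6 of the 65 libraries of the series. The cells were H9, a human embryonic stem cell line, carrying the reporters SOX17 mCHERRY/w and RUNX1C GFP/w, and are called WT in the titles in contrast to a derivative line that lacks the DNA binding domain of RUNX1 and was not used here. According to the media labels, the cells received activin A, CHIR (an inhibitor of GSK3 that raises Wnt signalling) at 2 µM and PI-103 (an inhibitor of PI3 kinase) at 50 nM on day 0, and activin A with DMH-1 (an inhibitor of BMP type I receptors) at 1 µM on all later days up to day 7. The medium was therefore the same at day 2 and at day 4. The 3 libraries each of day 0 and day 7 of the same protocol entered the fit for their spread and are given as levels. A further 8 WT unsorted libraries, 4 of day 2 and 4 of day 4, came from a mesoderm protocol with BMP4 at 20 ng/ml and activin A at 7.5 ng/ml, VEGF, SCF and FGF2, to which SB431542 (an inhibitor of activin and nodal receptors) and CHIR, each at 3 µM, were added from day 2 to day 4. The labels do not say how the reporter changes the SOX17 transcript, nor whether replicates came from separate cultures, so p-values measure only the spread between these libraries, which may be technical.

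Definitive endoderm is the germ layer that gives rise to the lining of the gut and to organs such as liver, pancreas and lung. In the embryo it leaves the primitive streak under high Nodal signalling, a signal that activin A replaces in culture. Cells pass from a mesendoderm state, marked by factors such as EOMES and MIXL1, to a SOX17- and FOXA2-positive epithelium that carries CXCR4, KIT and EPCAM at its surface, and are later patterned into foregut, midgut and hindgut.

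Each of the 6 libraries held between 15042865 and 17018719 fragment counts, and mitochondrial genes took 5.49 to 6.24% of them. The first principal component of the 12 endoderm libraries carried 65.2% of the variance and the second 20.4%, and the days separated on them without overlap between day 2 and day 4. Of 11970 genes with a mean of at least 8 CPM at day 4, replicate 3 lay more than 2-fold beyond both other libraries in 71, replicate 2 in 59 and replicate 1 in 5. The library number of replicate 3 is outside the run of the other endoderm libraries. Levels are given as CPM, counts scaled to the TMM-adjusted library size, listed in the order of replicates 1, 2 and 3, and changes are log2 fold changes of day 4 minus day 2 ± standard error from edgeR's quasi-likelihood test. Genes with a Benjamini-Hochberg adjusted p under 0.05 are said to have risen, fallen or been called. In these bulk libraries, fewer cells of a type and less RNA per cell cannot be told apart.

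Between day 2 and day 4 the transcriptome of the culture changed widely. Of 21542 genes tested, 9132 were called changed, a background of 42.4%, with 4791 higher at day 4 (22.2%) and 4341 lower (20.2%). The median log2 fold change over all genes tested was 0.01. With a test against a change of at least 1.5-fold, 3730 genes were called, 1962 higher and 1768 lower. Of the genes described here as risen or fallen and followed by name in that test, 20 were not called by it (adjusted p 0.092 to 1): ACVR2A, ACVR2B, CER1, EOMES, ESRP1, ETV5, FGF17, FOXA2, FOXA3, ID1, LAMC1, LIN28A, OTX2, PKM, RNF43, ROBO1, SALL4, SOX2, SOX7 and TDGF1. The libraries of the 2 days did not overlap in 51.9% of all genes tested, and lack of overlap is therefore common.

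Of the core endoderm transcription factors, some overlapped between the days, others rose from day 2 to day 4, and LHX1 and SOX7 fell. SOX17, the factor that specifies definitive endoderm and the locus of the mCherry reporter, measured 418, 432 and 322 CPM at day 2 and 419, 380.0 and 433 at day 4. The 2 groups overlapped, and the difference was 0.07 ± 0.11 (adjusted p 0.637). GATA6, a zinc finger factor of early endoderm, HHEX, a homeobox factor of anterior endoderm and liver, and PRDM1, a repressor found in endoderm and germ cells, also overlapped between the days, with log2 differences of -0.04 ± 0.11, -0.06 ± 0.09 and -0.00 ± 0.13. These 4 genes were near 0 at day 0, with means of 0 to 0.73 CPM, and stood at 228 ± 3.25, 348 ± 28.3, 83.1 ± 3.02 and 71.9 ± 4.40 CPM (mean ± SD, n = 3) at day 7.

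The largest rises in this list were those of GATA4 and of the pioneer factor FOXA1. FOXA1, a forkhead factor that opens chromatin at gut and liver genes, measured 1.55, 1.27 and 1.41 CPM at day 2 and 7.26, 6.56 and 10.5 at day 4, a change of 2.52 ± 0.29 (adjusted p 1.04e-05). GATA4, a zinc finger factor of endoderm and heart, measured 34.9, 31.7 and 22.3 CPM and then 261, 212 and 238, a 7.98-fold rise (log2 3.00 ± 0.16, adjusted p 1.08e-08). All 3 day 4 libraries lay above all 3 day 2 libraries for both genes. OTX2, a homeobox factor of anterior identity, rose by 0.65 ± 0.09, KLF5 by 1.28 ± 0.24, FOXA3 by 0.76 ± 0.11 and TCF7L2, which binds DNA with beta-catenin, by 0.94 ± 0.11. FOXA2 measured 72.1, 83.1 and 100.3 CPM and 124, 87.6 and 162 CPM, so that replicate 2 of day 4 lay within the day 2 range. Its change of 0.55 ± 0.21 passed narrowly (adjusted p 0.0487). The call ended without replicate 1 or 2 of day 2 (adjusted p 0.161 and 0.118), without replicate 1 or 3 of day 4 (0.0965 and 0.227), with other size factors (0.0511), with limma-trend (0.0776), with the 6 libraries alone (0.0644) and with the replicate block (0.0652). LHX1, a LIM homeobox factor of mesendoderm and anterior endoderm, fell 3.51-fold, from 1152, 1334 and 1422 to 292, 453 and 370.0 CPM. SOX7, a factor of extraembryonic endoderm and vessels, ranged from 1.44 to 2.82 CPM at day 2 and from 0.744 to 1.23 at day 4, a change of -1.11 ± 0.34 that missed the threshold when replicate 3 of day 2 was left out (adjusted p 0.092) and also without replicate 1 or replicate 2 of day 4 (0.0532 and 0.0587). In all, 8 of the 15 factors of this list rose (53.3%, against 22.2% of all genes tested). A further 2 fell (13.3%, against 20.2%) and 5 did not pass, with a median change of 0.55.

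**Figure D1:**
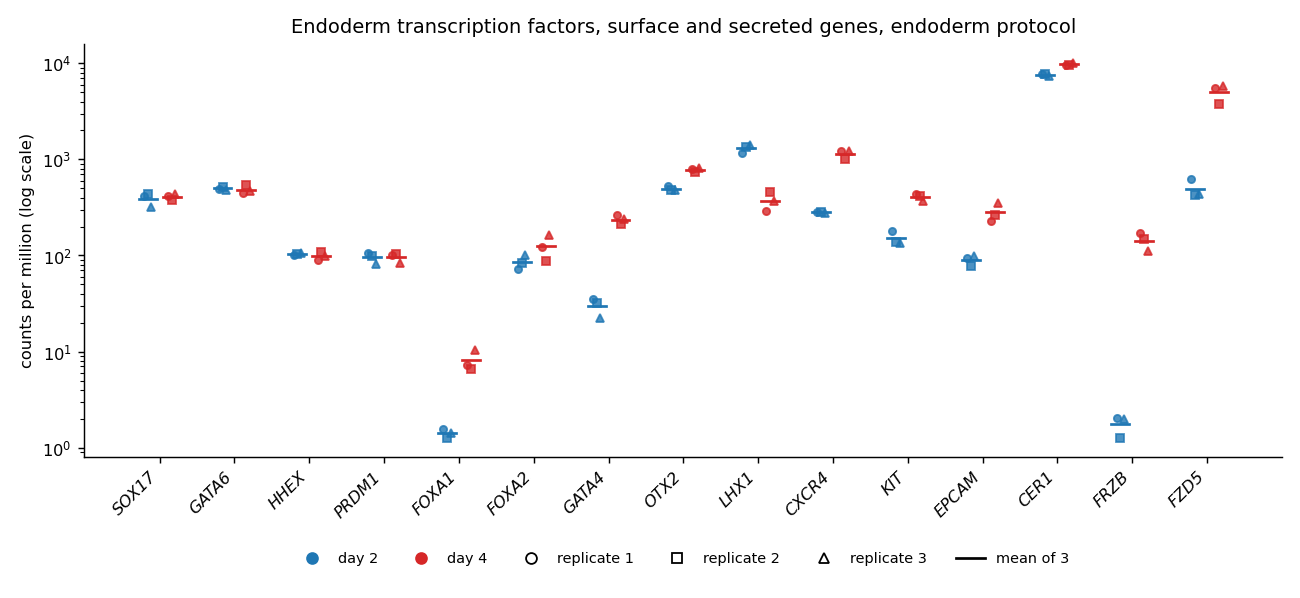
CPM on a log axis for 9 endoderm transcription factors and 6 surface or secreted genes. Circles, squares and triangles are replicates 1, 2 and 3 of day 2 (blue) and day 4 (red), and lines are means of 3 libraries. SOX17, GATA6, HHEX and PRDM1 overlap between the days, while GATA4 moves from 22.3 to 34.9 CPM up to 212 to 261 and FRZB from 1.27 to 2.05 up to 110.4 to 169.7.

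Transcripts of 3 surface proteins used to recognise endoderm rose. CXCR4, the chemokine receptor by which definitive endoderm is commonly sorted, measured 281, 284 and 279.7 CPM at day 2 and 1209, 1008 and 1215 at day 4, a change of 2.02 ± 0.17 (adjusted p 4.42e-07). KIT, the receptor of stem cell factor, went from 182, 138 and 134 to 434, 415 and 365 CPM (1.42 ± 0.15), and EPCAM, an epithelial adhesion molecule, from 93.5, 76.9 and 99.2 to 229.6, 262 and 355 CPM (1.65 ± 0.15). No library of one day reached the range of the other for these 3 genes. At day 0 their means were 4.06 ± 1.75, 27.2 ± 6.22 and 201 ± 23.7 CPM, that of EPCAM being above its day 2 libraries. At day 7 their means were 1289 ± 99.3, 678 ± 33.6 and 487 ± 36.6 CPM. Of the 11 tested members of the surface and secreted list, 10 rose and 1 fell, with a median change of 1.70. These shares were 90.9% and 9.09%, against 22.2% and 20.2% of all genes tested.

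The largest change in that list was in FRZB, a secreted antagonist that binds Wnt ligands. It measured 2.05, 1.27 and 2.00 CPM at day 2 and 169.7, 147 and 110.4 at day 4, an 80.3-fold rise (log2 6.33 ± 0.26, adjusted p 1.07e-09). FZD5, a Wnt receptor, rose 10.2-fold from 618, 423 and 438 to 5592, 3771 and 5756 CPM, and its relative FZD8 rose by 1.70 ± 0.15. CPE, a peptide-processing enzyme, rose by 2.59 ± 0.15, the ion channel gene TRPA1 by 1.97 ± 0.20 and SHISA2, which retains Wnt and FGF receptors in the endoplasmic reticulum, by 1.25 ± 0.17. CER1, a secreted antagonist of Nodal and BMP made by anterior endoderm, was already at 7827, 7721 and 7318 CPM on day 2 and measured 9576, 9553 and 10132 on day 4. Its small change of 0.36 ± 0.12 (adjusted p 0.0241) fell short of the threshold when replicate 2 or 3 of day 2, or replicate 1 or 3 of day 4, was left out (adjusted p 0.0514 to 0.0805), and with limma-trend (0.0912). CD177, a surface glycoprotein reported on endoderm subsets, went the other way, from 5.92, 6.11 and 5.34 to 2.25, 1.28 and 1.42 CPM (-1.81 ± 0.33). LGALS4 was too low to test.

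The stretches before the start sites of FOXA1 and FZD5 are shown because these genes had the second largest change in the factor list and in the surface and secreted list. They are RefSeq sequences of GRCh38.p14, written 5′ to 3′ on the gene's strand, and bases that GENCODE 29 places in an exon were left out. Capitals mark matches to 4 motifs searched on both strands of 35116 windows of 250 bases before RefSeq starts. The forkhead letters TGTTTAC occurred in 2.98% of these windows. The GATA factor letters AGATAA occurred in 9.17% of them. Part of the HNF1 element, GTTAAT, was found in 6.23% of the windows. The short SOX letters ACAAT were present in 24.6% of windows. In the windows of FOXA1 and FZD5 none of the 4 was found.
FOXA1 (chr14:37595349-37595499, minus strand): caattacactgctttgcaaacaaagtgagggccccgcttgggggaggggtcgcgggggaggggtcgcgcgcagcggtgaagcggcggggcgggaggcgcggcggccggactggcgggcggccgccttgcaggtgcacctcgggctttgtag
FZD5 (chr2:207769907-207770156, minus strand): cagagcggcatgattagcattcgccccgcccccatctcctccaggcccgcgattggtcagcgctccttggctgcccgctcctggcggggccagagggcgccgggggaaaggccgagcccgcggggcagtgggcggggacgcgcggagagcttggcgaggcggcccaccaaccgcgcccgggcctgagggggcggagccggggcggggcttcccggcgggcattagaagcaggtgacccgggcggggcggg

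Genes of the primitive streak and of the undifferentiated state fell more often than they rose. Of 12 streak and mesendoderm genes tested, 7 fell, 1 rose and 4 did not pass, with a median of -0.86. The shares were 58.3% lower and 8.33% higher, against 20.2% and 22.2% of all genes tested. TBXT (brachyury), the T-box factor of streak and mesoderm, measured 7.80, 10.2 and 12.4 CPM at day 2 and 2.25, 4.06 and 1.42 at day 4 (-1.98 ± 0.32, adjusted p 0.000221). MIXL1, a homeobox factor of mesendoderm, went from 1083, 1260.2 and 1272 to 557, 623 and 646 CPM, a change of -0.99 ± 0.12. EOMES, the T-box factor upstream of SOX17, fell less, from 828, 809 and 789 to 655, 712 and 529.7 CPM (-0.36 ± 0.11), and the call was lost without replicate 3 of day 4 (adjusted p 0.0603) or replicate 1 of day 2 (0.0514). SP5, a direct target of Wnt signalling, fell 4.29-fold and TBX6, a factor of paraxial mesoderm, 3.57-fold. FGF4 dropped out almost entirely, with 1251 counts over the day 2 libraries and 3 over those of day 4, a level lower by 365-fold (95% counting interval 124 to 1770.1). WNT8A likewise had 144 counts at day 2 and 1 at day 4, lower by 126-fold (95% counting interval 22.2 to 5006). These intervals cover counting error only. FGF8, a ligand of streak and anterior patterning, was the member that rose, from 10.2, 10.1 and 9.33 to 38.6, 43.8 and 46.8 CPM. GSC, an organiser homeobox gene, and NODAL did not pass, with changes of 0.19 ± 0.15 and 0.06 ± 0.12.

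POU5F1 (OCT4), the central factor of pluripotency, measured 86.1, 101 and 133 CPM at day 2 and 6.17, 2.03 and 12 at day 4, a change of -3.97 ± 0.43 (adjusted p 6.61e-06) that was -4.69 without replicate 3 of day 4. Its level at day 0 was 297 ± 30.8 CPM. NANOG, its partner, fell 4.47-fold to 0.450, 0.135 and 0.863 CPM, with a change of -2.16 ± 0.46, and of -2.88 without replicate 3 of day 4. SOX2 was at 5.64, 2.42 and 12.3 and 2.51, 0.811 and 4.01 CPM, with overlapping days, and its call (adjusted p 0.0398) ended without replicate 3 of day 2 (change -0.70, adjusted p 0.284), without replicate 1 of day 2 (0.0528), without replicate 1 or 2 of day 4 (0.0924 and 0.131), with DESeq2 (0.0892), with limma-trend (0.073) and with the 6 libraries alone (0.0713). TERT, the catalytic subunit of telomerase, fell (-1.78 ± 0.24) and DPPA2 (-1.65 ± 0.32). Other members rose. KLF4, a zinc-finger factor used in reprogramming, went from 0.332, 0.165 and 0.763 to 1.61, 1.35 and 0.986 CPM, and its change of 1.64 ± 0.44 was 2.36 without replicate 3 of day 2 and lost its call with limma-trend (adjusted p 0.0708). DPPA3 had 1 count over day 2 and 12 over day 4, higher by 13.7-fold (95% counting interval 2.03 to 587). LIN28A, an RNA-binding repressor of let-7, rose by 0.33 ± 0.08, SALL4 by 0.50 ± 0.09 and the Nodal co-receptor TDGF1 by 0.74 ± 0.18. Of 19 tested members 9 fell (47.4%, against 20.2% of all genes tested), 6 rose (31.6%, against 22.2%) and 4 did not pass.

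**Figure D2:**
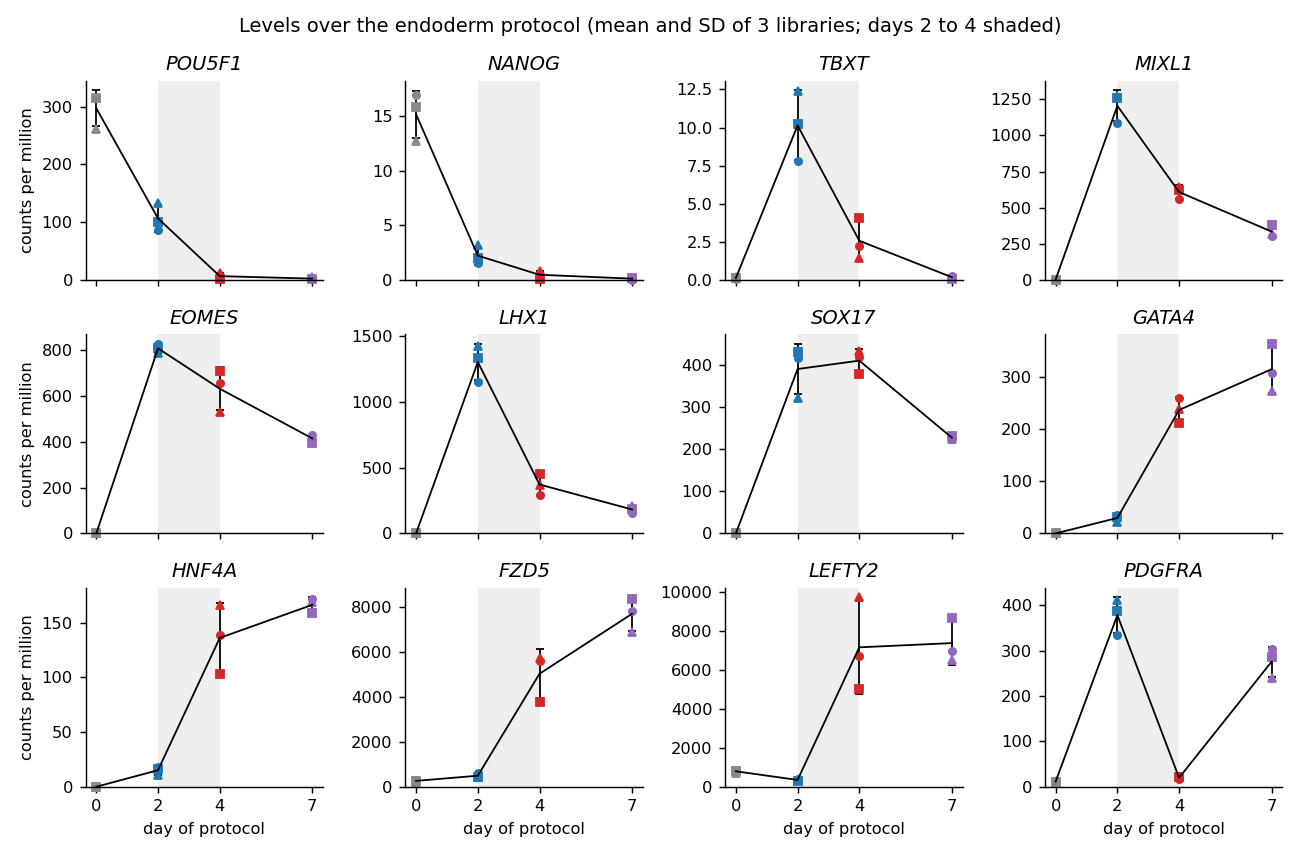
CPM on linear axes for 12 genes at days 0, 2, 4 and 7 of the endoderm protocol. Points are the 3 libraries per day, the line joins their means, bars are SD, and the shaded span runs from day 2 to day 4. MIXL1, EOMES and LHX1 peak at day 2, GATA4, HNF4A, FZD5 and LEFTY2 climb between day 2 and day 4, and PDGFRA falls from 335 to 413 CPM to 16.3 to 22.1 before standing at 276 ± 33.1 at day 7.

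In the Nodal pathway, the signal that activin A stands in for, the ligand did not pass and an inhibitor rose. LEFTY2, a secreted antagonist of Nodal and a target of the pathway, measured 374, 321 and 357 CPM at day 2 and 6712, 5012 and 9737 at day 4, a 20.4-fold rise (log2 4.35 ± 0.22, adjusted p 5.35e-09). Its neighbour and close paralog LEFTY1 measured 816, 951 and 1089.8 and 1089.5, 694 and 1624 CPM and did not pass (0.25 ± 0.23), though it did without replicate 2 of day 4 (0.51, adjusted p 0.0432). Reads shared by the pair cannot be assigned to either gene with certainty. Of the signal transducers, SMAD3 rose by 1.34 ± 0.11 and SMAD2 by 0.87 ± 0.12, while SMAD4, their common partner, measured -0.08 ± 0.12 and did not pass. The type I receptor ACVR1B rose by 0.86 ± 0.09 and the type II receptor ACVR2A by 0.57 ± 0.12, whereas ACVR2B fell (-0.58 ± 0.10). Of 17 tested members 8 rose, 1 fell and 8 did not pass, against the background of 22.2% and 20.2%.

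BMP antagonists, ligands and target genes each moved in both directions, in a medium that held a BMP receptor inhibitor on both days. FST (follistatin), which binds activin and BMPs, measured 15.8, 11.7 and 10.4 CPM at day 2 and 272, 345 and 209.6 at day 4, a 21.7-fold rise (log2 4.44 ± 0.23). NOG (noggin), another secreted antagonist, rose from 0.221, 0.661 and 0.704 to 6.36, 12 and 3.70 CPM, while CHRD (chordin) fell from 5.26, 7.21 and 23.5 to 1.29, 2.03 and 2.28 CPM. The fall of CHRD was -2.67 ± 0.47, and -1.74 without replicate 3 of day 2. Ligands differed as well, since BMP2 rose 4.21-fold and BMP4 3.76-fold while BMP7 fell (-0.85 ± 0.13). Among receptors BMPR1B rose by 2.88 ± 0.27 and BMPR2 by 0.95 ± 0.15, and BMPR1A did not pass. Of the target genes, ID1 fell (-1.07 ± 0.29), ID3 (-1.97 ± 0.29) and MSX1 (-2.49 ± 0.47), whereas SMAD6, an intracellular inhibitor of the pathway, rose by 1.85 ± 0.17. The list as a whole moved in both directions, with 8 members up, 6 down and 7 not passing of 21. The shares were 38.1% up and 28.6% down, against 22.2% and 20.2% of all genes tested.

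Several Wnt receptors rose, and several Wnt targets fell. LGR5, a receptor for R-spondins that marks intestinal stem cells in the adult, measured 1.66, 1.05 and 0.293 CPM at day 2 and 91.1, 108 and 126 at day 4, a 106-fold rise (log2 6.73 ± 0.27, adjusted p 1.04e-09). A non-coding gene annotated on the opposite strand, AC078860.1, overlaps it by 1560 bases and rose too, and without knowledge of strand in the counting their reads cannot be told apart. FZD4 rose by 2.28 ± 0.16, LGR4 by 1.38 ± 0.14 and ROR1 by 1.76 ± 0.18. Means of FZD4, LGR4 and ROR1 were 17.2, 138 and 111 CPM at day 0 and 111, 141 and 56.1 at day 4. Of 20 tested ligands and receptors, 10 rose and 4 fell (50% and 20%, against 22.2% and 20.2% of all genes tested). Those that fell included the ligands WNT5A (9.17-fold) and WNT11 (3.40-fold).

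Of 18 targets and secreted inhibitors of the same pathway, 9 fell (50%, against 20.2% of all genes tested). The 4 that rose made 22.2%, the same share as among all genes. DKK4, a Wnt antagonist and target, measured 429, 658 and 918 CPM at day 2 and 3.86 ± 0.571 CPM (mean ± SD, n = 3) at day 4, lower 173-fold. NKD1, a feedback target, fell (-1.42 ± 0.26), RNF43, a ligase that removes Wnt receptors, (-0.93 ± 0.23) and LEF1, a DNA-binding partner of beta-catenin, (-3.35 ± 0.54, and -4.06 without replicate 2 of day 4). AXIN2, the general feedback target, measured 78.2, 82 and 72.4 and 96.5, 99.1 and 103 CPM and did not pass (adjusted p 0.0619), though it did with no low-count filter (0.0153) and with the 6 libraries alone (0.0159). NOTUM, an enzyme that inactivates Wnt ligands, rose from 3.93, 3.80 and 2.29 to 19, 19.9 and 7.58 CPM, with replicate 3 of day 4 lowest of its group. The secreted frizzled-related proteins split, with SFRP1 up 4.97-fold and SFRP2 down 10.5-fold.

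FGF ligands changed in composition. FGF19 fell from 9.90, 12.9 and 14.4 to 0.257, 0.0676 and 0.247 CPM (-5.95 ± 0.40) and FGF2 (-1.87 ± 0.19), beside the loss of FGF4 and the rise of FGF8 given above. FGF17 was at 1444, 1600.3 and 1641 and then 2014, 1856 and 2546 CPM, and its change of 0.45 ± 0.15 lost its call without replicate 3 of day 4 (adjusted p 0.0951) and without replicate 1 or 2 of day 2 (0.0792 and 0.0511). The transcription factors ETV4 and ETV5, which report FGF signalling through ERK, fell (-1.83 ± 0.18 and -0.91 ± 0.23), as did the feedback gene IL17RD (-1.39 ± 0.19). DUSP4, a phosphatase that acts on ERK, rose from 362, 282 and 291 to 1086, 807 and 913 CPM. DUSP6, another such phosphatase, did not pass. Over the list 7 of 19 rose and 9 fell (36.8% and 47.4%, against 22.2% and 20.2% of all genes tested).

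Several genes of foregut and liver rose, apolipoproteins among them, while ALB, AFP, TTR and the fibrinogen chains FGB and FGG stayed at or near 0 counts. HNF4A, a nuclear receptor that drives hepatic and intestinal programmes, measured 18.4, 16.4 and 10.7 CPM at day 2 and 139, 103 and 166 at day 4, an 8.97-fold rise (log2 3.17 ± 0.20, adjusted p 4.04e-08). ONECUT2 rose by 3.22 ± 0.20 and PROX1, a homeobox factor of liver bud and lymphatics, by 1.21 ± 0.25. Among apolipoproteins APOA1 rose from 0.332, 0.0551 and 0.469 to 3.66, 7.84 and 11.8 CPM and APOE from 303, 328 and 293 to 1084, 923 and 1345 CPM. APOA2 rose from 10.7, 11.5 and 8.98 to 30.9, 41.5 and 92.4 CPM, with replicate 3 of day 4 the highest, and its change of 2.40 ± 0.41 was 1.79 without that library. Of the 26 members 13 could be tested, and of these 8 rose (61.5%, against 22.2% of all genes tested) and 5 did not pass. ALB (albumin), AFP and FGG held at most 4 counts over either day, and TTR, FGB, SERPINA1, APOH and APOC3 held 0 counts on both days.

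HNF4A has 2 starts in the RefSeq table, and counts per gene do not say which was used. Both windows are shown with that of APOA2, an apolipoprotein gene, with motif matches in capitals as above. The first HNF4A window holds AGATAA starting 26 bases before the start. The second holds the reverse complement of GTTAAT starting at 73 and again at 66 bases before the start, and ACAAT at 203. The APOA2 window holds the reverse complement of TGTTTAC at 42 bases before the start. A match is a description of these letters and not evidence of binding.
HNF4A upstream start (chr20:44355449-44355698, plus strand): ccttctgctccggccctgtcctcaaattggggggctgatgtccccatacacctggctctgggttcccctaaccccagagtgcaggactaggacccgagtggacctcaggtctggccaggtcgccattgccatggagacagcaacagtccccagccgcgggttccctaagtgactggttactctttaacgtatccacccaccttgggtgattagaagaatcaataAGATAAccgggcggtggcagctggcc
HNF4A downstream start (chr20:44400989-44401238, plus strand): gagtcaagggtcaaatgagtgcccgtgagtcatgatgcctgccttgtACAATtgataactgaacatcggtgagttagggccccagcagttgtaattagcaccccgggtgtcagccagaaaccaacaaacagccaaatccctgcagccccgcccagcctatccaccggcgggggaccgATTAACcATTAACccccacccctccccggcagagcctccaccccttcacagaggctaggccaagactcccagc
APOA2 (chr1:161223632-161223878, minus strand): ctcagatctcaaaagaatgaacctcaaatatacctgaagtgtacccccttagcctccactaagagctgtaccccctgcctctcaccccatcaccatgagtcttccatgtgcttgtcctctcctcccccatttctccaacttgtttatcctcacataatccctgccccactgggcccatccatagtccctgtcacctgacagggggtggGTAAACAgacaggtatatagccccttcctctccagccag

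Of 8 tested genes in the list of pancreas, lung and anterior foregut, 4 rose and 2 fell (50% and 25%, against 22.2% and 20.2% of all genes tested). Those that fell were PYY (peptide YY, -1.32 ± 0.43) and ISX (intestine-specific homeobox), the latter with 52 counts over day 2 and 1 over day 4. The falling count was 1 without replicate 1 or 3 of day 2 or replicate 2 of day 4. Which of these 2 calls was lost there was not followed by gene, and that loss is not among the lost calls counted elsewhere. SHH, a ligand made by gut epithelium, measured 0.885, 0.661 and 1.76 CPM at day 2 and 34.4, 36.4 and 25 at day 4, a 29-fold rise, and the pancreatic and motor neuron factor MNX1 rose by 1.95 ± 0.23. NKX2-1, the lung and thyroid factor, had 0 counts over day 2 and 26 over day 4, at least 9.91-fold higher against a floor of 3 counts over the group. Its adjusted p was 0.00749, and 0.0816 with limma-trend. PDX1, PTF1A and NKX6-3 held 0 counts on both days, which allows 3 counts at each. In the midgut and hindgut list 10 of 14 members were too low to test, among them CDX1, CDX2 and the 7 HOX genes listed. VIL1, an actin-bundling protein of the brush border, rose by 2.64 ± 0.18.

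Keratin 8, keratin 18 and several junction genes rose, whereas E-cadherin fell. KRT8 measured 381, 429 and 333 CPM at day 2 and 1621, 1843 and 1499 at day 4 and its partner KRT18 198, 213 and 171 and 805, 952 and 671, changes of 2.12 ± 0.14 and 2.06 ± 0.18, although both genes have processed pseudogenes that can share their reads. The tight junction protein OCLN rose by 2.03 ± 0.14, CLDN3 by 3.30 ± 0.53 (2.58 without replicate 3 of day 4) and the desmosomal PKP2 by 2.24 ± 0.11. These 3 genes had been higher at day 0 than at day 2, with day 0 means of 39.7, 5.34 and 95.6 CPM. Their means were 11.3, 0.777 and 25.4 at day 2 and 46.1, 7.66 and 120 at day 4. KRT8 and KRT18 had day 0 means of 234 and 180 CPM. CDH1 (E-cadherin) measured 80.05, 84.7 and 170.4 CPM at day 2 and 14.5, 22.7 and 68.5 at day 4, a change of -1.66 ± 0.43 (adjusted p 0.00667) and of -2.59 without replicate 3 of day 4. It stood at 151 ± 29.7 CPM at day 7. GRHL2, an activator of epithelial genes, fell (-2.15 ± 0.30) and the splicing factor ESRP1 (-0.74 ± 0.14), while ESRP2 rose 2.27-fold. Of 24 members 15 rose (62.5%, against 22.2% of all genes tested), 6 fell (25%, against 20.2%) and 3 did not pass.

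The count of mesenchymal transition genes differed with and without replicate 3 of day 4. With all libraries 2 of 11 tested members rose and 4 fell (18.2% and 36.4%, against 22.2% and 20.2% of all genes tested). Without that library 6 rose. VIM (vimentin), an intermediate filament of mesenchyme, measured 600.3, 603 and 394 CPM at day 2 and 1097, 1074 and 453 at day 4. Its change was 0.72 ± 0.38 (adjusted p 0.141) with all libraries and 1.02 (adjusted p 0.0291) without replicate 3. ZEB1, a repressor of CDH1, measured 9.96, 8.37 and 6.63 and 18.7, 16.6 and 5.61 CPM, with a change of 0.71 ± 0.33 and of 1.08 (adjusted p 0.001) without it. Both genes were also called when no low-count filter was applied (adjusted p 3.53e-10 for VIM and 0.00202 for ZEB1), with changes of 0.71 each. Their counts are the same in that run, so its lower adjusted p is not a sign of a smaller spread between libraries. The same limit holds for AXIN2 and CXCL12 in the run with no filter. In the same direction as VIM and ZEB1, replicate 3 was the lowest of day 4 for NPPB, ANKRD1 and CDKN2B, and it was the highest for CDH1, EPCAM and FOXA1. FN1 (fibronectin) rose from 810.0, 624 and 726 to 3329.9, 3335 and 5224 CPM, and CDH2 (N-cadherin) by 0.95 ± 0.15. MMP2, a matrix protease, fell 7.49-fold, and SNAI1, which represses CDH1, (-1.34 ± 0.16).

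**Figure D3:**
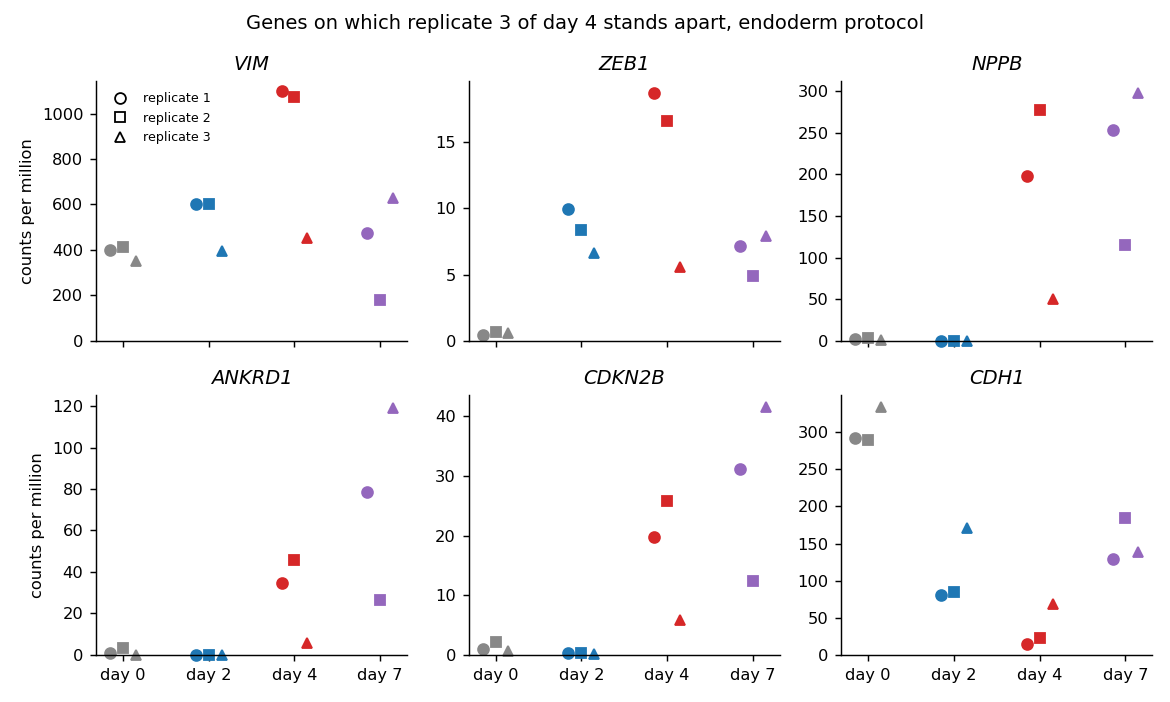
CPM on linear axes for 6 genes in the 12 endoderm libraries, with circles, squares and triangles for replicates 1, 2 and 3. The genes were chosen after their values were seen. Replicate 3 of day 4 measures 453 CPM for VIM, 50.1 for NPPB and 5.79 for ANKRD1, below both other libraries of its day, and 68.5 for CDH1, above both, and replicate 2 of day 7 is the lowest of its day for the first 5 genes.

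The basement membrane, the sheet of matrix under an epithelium, changed in all 6 of its collagen IV chains. COL4A3 measured 0.166, 0.220 and 0.235 CPM at day 2 and 20.1, 27 and 32.2 at day 4, a 123-fold rise (log2 6.95 ± 0.28, adjusted p 1.04e-09), and COL4A4 rose 40.3-fold from 0.830, 1.05 and 0.998 to 30.2, 31.8 and 54.7 CPM. COL4A1, COL4A2, COL4A5 and COL4A6 rose by 2.15 ± 0.10, 1.35 ± 0.08, 1.37 ± 0.12 and 2.16 ± 0.15. The 6 genes lie in 3 head-to-head pairs, and the RefSeq starts of COL4A3 and COL4A4 on chromosome 2 are 419 bases apart, those of COL4A1 and COL4A2 on chromosome 13 are 127 apart and those of COL4A5 and COL4A6 on chromosome X are 380 apart. HSPG2 (perlecan), a heparan sulfate proteoglycan, rose from 163, 164 and 200.3 to 1624, 1027 and 1119 CPM, AGRN (agrin) by 1.58 ± 0.10 and the laminin chains LAMA5 and LAMB1 by 1.31 ± 0.09 and 1.37 ± 0.08. AGRN and LAMA5 measured 326 ± 13.3 and 305 ± 12.1 CPM at day 0 and 356 ± 40.9 and 303 ± 22.5 at day 4. HSPG2 and LAMB1 were lower at day 0 than at day 2, with means of 90.6 and 67.2 CPM. Another laminin chain, LAMC1, fell (-0.49 ± 0.13), and LAMA1 did not pass (-0.10 ± 0.12, adjusted p 0.522). The nidogens, which link laminin to collagen IV, fell, NID1 (-1.05 ± 0.22) and NID2 (-2.70 ± 0.31, and -3.28 without replicate 2 of day 4). In this list 14 of 19 rose, 3 fell and 2 did not pass, with a median of 1.35. The shares were 73.7% and 15.8%, against 22.2% and 20.2% of all genes tested.

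**Figure D4:**
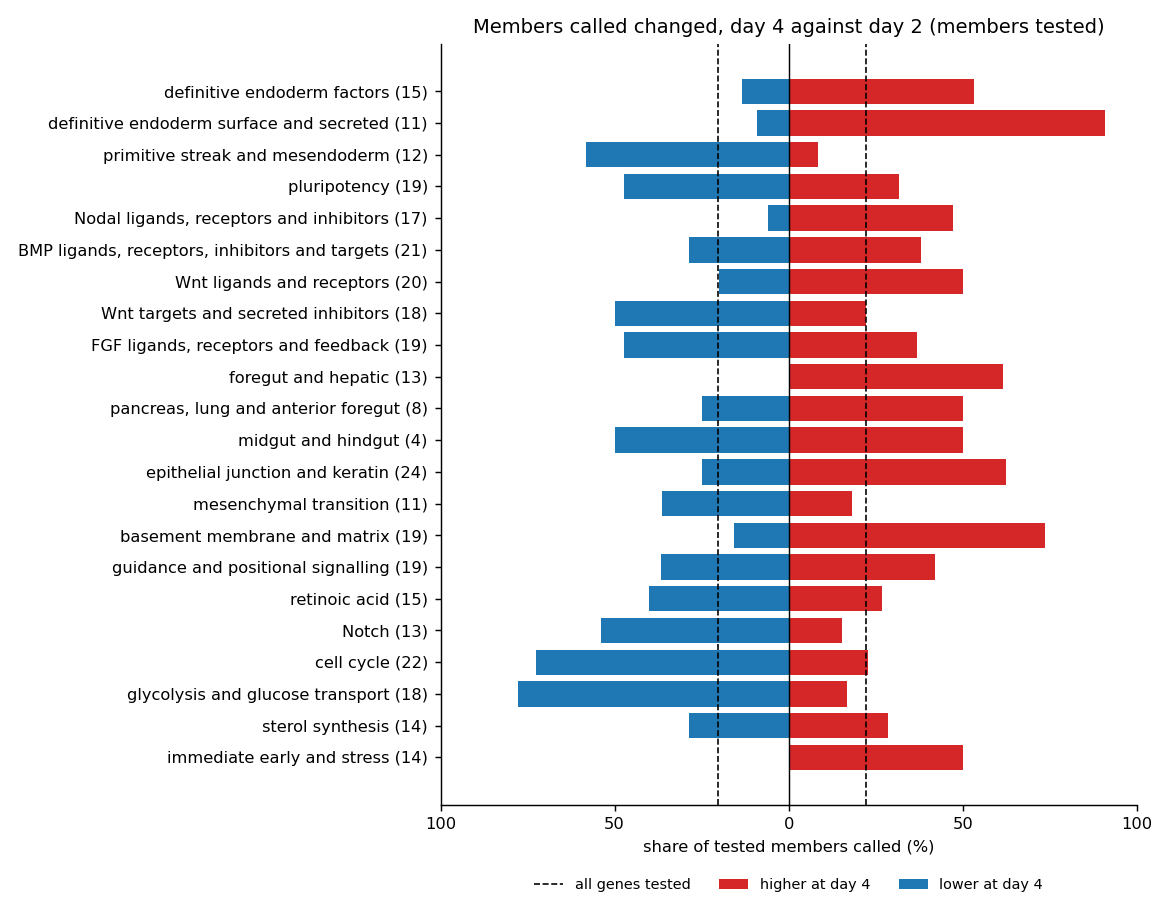
Share of the tested members of 22 gene lists called higher (red, to the right) or lower (blue, to the left) at day 4 than at day 2, with the number tested in brackets. Dashed lines mark 22.2% and 20.2%, the shares among all genes tested. Surface and secreted endoderm genes reach 90.9% higher and basement membrane genes 73.7%, and cell cycle and glycolysis genes reach 72.7% and 77.8% lower.

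Guidance genes moved in both directions, 8 of 19 up and 7 down (42.1% and 36.8%, against 22.2% and 20.2% of all genes tested). SEMA3E, a secreted semaphorin, measured 47.1, 29.8 and 23.7 CPM at day 2 and 409, 332 and 417 at day 4, and SEMA3A rose by 2.69 ± 0.22. The day 0 mean of SEMA3E was 2.52 CPM. SEMA3A had a mean of 83.6 CPM at day 0, 14.8 at day 2 and 95.8 at day 4. ACKR3, a scavenging receptor for CXCL12, rose by 2.84 ± 0.22 beside the rise of CXCR4, which binds the same ligand, while CXCL12 itself measured 31.4, 25.4 and 29.5 and 23.8, 22 and 9.06 CPM and did not pass (adjusted p 0.214, and 2.24e-04 with no low-count filter). SLIT2 and its receptor ROBO1 fell (-1.79 ± 0.40 and -0.94 ± 0.22).

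Genes for the handling of retinoic acid, a vitamin A derivative that patterns the gut, moved in both directions. Of 15 genes 4 rose and 6 fell (26.7% and 40%, against 22.2% and 20.2% of all genes tested). CYP26A1, which degrades retinoic acid, measured 319, 308 and 257 CPM at day 2 and 1638, 1732 and 1740.4 at day 4. The receptor RARB rose 13.5-fold and RARA by 1.10 ± 0.10, while RARG fell (-3.03 ± 0.25). CRABP1, which carries retinoic acid in the cell, fell (-4.20 ± 0.30, and -4.85 without replicate 3 of day 4), and STRA6, the receptor for retinol-binding protein, fell (-2.32 ± 0.35). ALDH1A2, the enzyme that makes the ligand in early embryos, had 154 counts at day 2 and 3 at day 4, lower by 44.9-fold (95% counting interval 15.1 to 220.0).

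Among Notch genes 7 of 13 fell and 2 rose (53.8% and 15.4%, against 20.2% and 22.2% of all genes tested). HES1, a repressor induced by Notch, fell from 20.5, 25.7 and 38 to 5.66, 3.45 and 4.31 CPM, whereas HES4 rose from 1.05, 1.05 and 0.411 to 27, 16.4 and 18.6 CPM. JAG1 and NRARP fell (-1.56 ± 0.31 and -1.93 ± 0.31).

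Proliferation genes were lower at day 4. Of 22 cell cycle genes 16 fell and 5 rose, with a median of -1.20. The shares were 72.7% and 22.7%, against 20.2% and 22.2% of all genes tested. MKI67, the antigen of cycling cells, measured 591, 570.3 and 632 CPM at day 2 and 178, 189 and 182 at day 4 (-1.71 ± 0.09), and TOP2A fell (-1.78 ± 0.09). Replication genes such as MCM2 (-1.20 ± 0.12) and mitotic genes such as PLK1 (-1.29 ± 0.11) fell with them. Their levels at day 7 were not all lower still, since MKI67 stood at 310.2 ± 24.3 CPM. The inhibitor CDKN2B (p15) rose from 0.387, 0.385 and 0.235 to 19.9, 25.8 and 5.86 CPM, with replicate 3 lowest, and CDKN1B (p27) by 1.08 ± 0.19, while CDKN1A (p21) fell (-2.15 ± 0.39).

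Most glycolytic genes fell. In the list of glycolysis and glucose transport 14 of 18 fell and 3 rose, with a median of -0.88. The shares were 77.8% and 16.7%, against 20.2% and 22.2% of all genes tested. The glucose transporters moved apart, as SLC2A1 (GLUT1) fell from 102, 121 and 176 to 17.9, 32.5 and 38.3 CPM and SLC2A3 (GLUT3) rose from 613, 503 and 585 to 3459, 3051 and 3185 CPM. ALDOC fell 5.78-fold and GAPDH 2.00-fold, while PKM rose by 0.67 ± 0.08. GAPDH and PGK1 have processed pseudogenes, so part of their counts is uncertain. Sterol synthesis genes did not move one way, 4 of 14 rising and 4 falling (28.6% each, against 22.2% and 20.2% of all genes tested). The rising count was 2 without replicate 1 or 3 of day 4 or replicate 3 of day 2, and the falling count was 2 without replicate 1 of day 2. Of 14 immediate early and stress genes 7 rose (50%, against 22.2% of all genes tested), led by FOSB (2.99 ± 0.43) and JUN (2.73 ± 0.23). This count was 4 without replicate 1 or replicate 2 of day 2 and with limma-trend.

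Markers of other cell types were checked in the same libraries. The 14 markers of lateral and cardiac mesoderm summed to 423 to 498 CPM at day 2 and to 120.2 to 175.9 at day 4. Of 8 tested, 4 rose and 3 fell (50% and 37.5%, against 22.2% and 20.2% of all genes tested). HAND2, NKX2-5 and TBX5 held at most 1 count over either day. PDGFRA, a receptor of early mesoderm and primitive endoderm, made up most of the day 2 sum, falling from 335, 388 and 413 to 16.3, 22.1 and 21.2 CPM (-4.25 ± 0.14), and APLNR and KDR, both early mesoderm receptors, fell (-3.25 ± 0.24 and -2.17 ± 0.18). MYL7, an atrial myosin light chain, was among the 4 that rose, from 1.11, 0.606 and 0.0587 to 113, 77.3 and 53.8 CPM (7.06 ± 0.47, and 7.87 without replicate 1 of day 2). The 14 endothelial and blood markers summed to 87.5 to 95.4 CPM at day 2 and 270.3 to 372.3 at day 4. VWF accounted for most of the latter, at 275, 262 and 363 CPM, while CDH5, PECAM1, PTPRC and GATA1 held at most 6 counts over day 4. Among the 7 tested, 3 rose and 2 fell (42.9% and 28.6%, against 22.2% and 20.2% of all genes tested). Neural markers summed to 234.1 to 276.3 CPM and then 139.97 to 183.2, with SOX1, NEUROG2 and HES5 at 0 counts at day 4. Among the 7 tested, 2 rose and 2 fell (28.6% each, against the same shares of all genes). Trophoblast and amnion markers summed to 31.6 to 53.8 CPM and 44.8 to 51.3, with CGA, XAGE2 and VTCN1 at 0 counts at day 4. Among the 5 tested, 2 rose (40%, against 22.2% of all genes tested) and 0 fell. GATA3 in this set rose from 0.111, 0.275 and 0.235 to 10.7, 7.44 and 7.70 CPM. Markers of extraembryonic endoderm, many of which definitive endoderm shares, summed to 941 to 1131 CPM and 2017 to 2262. COL4A1, a matrix gene, was the main riser in CPM, from a mean of 254.6 ± 33.2 to 1130 ± 21.9. HNF4A and APOA1, given above, also rose, and not every member that rose is named. SOX7 and NID2 fell (-1.11 ± 0.34 and -2.70 ± 0.31), AFP held at most 2 counts over either day and TTR held 0. Of 13 tested, 7 rose and 2 fell (53.8% and 15.4%, against 22.2% and 20.2% of all genes tested). The part of these other cell types in the changes above was not tested. RUNX1, the other reporter locus, measured 1.11, 0.661 and 0.763 and 2.06, 1.69 and 0.247 CPM and did not pass (adjusted p 0.446). Without replicate 3 of day 4 and replicate 2 of day 7 its change was 1.14 (adjusted p 0.0242), an alternative chosen after seeing the data.

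Outside the lists, the genes of largest change were the 15 highest and 15 lowest among calls with at least 8 CPM and no overlap. NPPB, the B-type natriuretic peptide, had 1 count over day 2 and measured 198, 277 and 50.1 CPM at day 4. ANKRD1, a nuclear protein induced by YAP and by stretch, had 1 count over day 2 and measured 34.7, 45.6 and 5.79 CPM at day 4. For both genes replicate 3 was the lowest of day 4, and all 3 libraries lay above the day 2 range. IGFBP5, a binding protein of insulin-like growth factors, rose from 0.885, 0.991 and 1.11 to 709.8, 286 and 396 CPM (8.85 ± 0.42) and stood at 4301 ± 343 CPM at day 7. COL8A1 had 2 counts over day 2 and 895 over day 4, higher by 512-fold (95% counting interval 141 to 4233). The calcium channel gene CACNA1E rose by 8.21 ± 0.24, NPNT (nephronectin, a matrix protein) by 6.99 ± 0.21, SOX21 by 6.85 ± 0.49 and the forkhead gene FOXQ1 by 6.63 ± 0.36. LMX1A, a LIM homeobox factor, and SPRR3, a cornified envelope protein, had 3 and 1 counts over day 2 and measured 33.7, 15.6 and 26.5 CPM and 13.9, 15.4 and 13 CPM at day 4. The remaining 5 of the 15 were non-coding genes, among them LINC02413 (8.72 ± 0.23) and AC007563.2, which overlaps IGFBP5 on the opposite strand by 1062 bases.

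Among the genes that fell most, KCNV1, a modifier subunit of potassium channels, went from 32.9, 31.9 and 57.7 to 0.129, 0.135 and 0.123 CPM (-8.22 ± 0.37) and the inward rectifier KCNJ2 from 21.7, 19.5 and 34.3 to 0.193, 0.406 and 0.555 CPM. CD1D, which presents lipids to T cells, fell (-6.93 ± 0.31) and LIX1 (-6.61 ± 0.41). NTNG2, a netrin-like membrane protein, fell from 63.6, 87.8 and 85.9 to 1.16, 1.42 and 2.16 CPM, and the focal adhesion gene TNS4 (-5.66 ± 0.37). NTS (neurotensin), CMKLR1, GRM4, LCK, MAOA and RET had changes from -4.51 to -4.91, with CMKLR1 at -5.67 without replicate 2 of day 4, and RET, the receptor of GDNF, had been at 11.6, 14.8 and 16.5 CPM on day 2.

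The same 2 days were also compared in the mesoderm protocol, and the difference of the changes was tested. Such a difference can come from a change in either protocol. Of 21868 genes in this fit, 9909 differed (45.3%), 4919 with a more positive change in endoderm (22.5%) and 4990 with a more negative one (22.8%). Genes called in both protocols and in opposite directions numbered 1066 with a rise in endoderm (4.87%) and 976 with a fall (4.46%). Culture medium, time in it and cell type differ together between the protocols and cannot be told apart. For the genes below, no call of the difference was lost under any alternative run. Of these genes, 12 were chosen from the lists for the largest called differences with called opposite changes, so their calls follow from the choice.

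SOX17 did not pass in endoderm and fell in the mesoderm protocol, from 14.4, 16.9, 21.6 and 37.7 CPM at day 2 to 2.23, 2.28, 0.475 and 1.12 at day 4 in 4 libraries each, a difference of the changes of 3.95 ± 0.48 (adjusted p 1.34e-05). GATA4 rose by 3.01 ± 0.36 in endoderm and fell in mesoderm (-2.14 ± 0.31), and EPCAM rose by 1.66 ± 0.34 and fell (-3.67 ± 0.33). FOXA1 had 18 counts over the 4 mesoderm libraries of day 2 and 1 over those of day 4. FRZB rose in both protocols, but by 5.23 ± 0.63 more in endoderm. Its mesoderm libraries of day 4 held 3.07, 2.82, 0.949 and 1.33 CPM (adjusted p 0.0429 for the rise there). KIT rose more in mesoderm, by 3.31 ± 0.29 against 1.43 ± 0.28, a difference of -1.88 ± 0.39 (adjusted p 0.00138). CXCR4 rose in both, by 2.03 ± 0.36 in endoderm and 2.99 ± 0.35 in mesoderm. The difference of -0.95 ± 0.49 did not pass (adjusted p 0.126), though it was -1.24 (adjusted p 0.00194) without replicate 3 of day 4 of the mesoderm protocol, which had the lowest CXCR4 of its group.

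Several secreted regulators moved in opposite directions in the protocols. LEFTY2 rose by 4.36 ± 0.34 in endoderm and fell in mesoderm (-5.31 ± 0.58), a difference of 9.67 ± 0.63. SB431542 and CHIR were both added to the mesoderm cultures over these days, and the part of either in this fall was not tested. FST and NOG differed by 7.26 ± 0.44 and 7.03 ± 0.90, CYP26A1 by 8.34 ± 0.83, LGR5 by 9.15 ± 0.87 and SEMA3E by 11.73 ± 0.49. SEMA3E in mesoderm fell from 26.3, 22.4, 31.3 and 39 CPM to 0.0602, 0, 0.178 and 0.140. In the other direction NID2 fell in endoderm and rose in mesoderm from 6.15, 5.71, 8.12 and 3.29 to 777, 1162, 373 and 1064 CPM, a difference of -9.86 ± 0.61. KDR and TEK, receptors of vascular progenitors, differed by -5.58 ± 0.23 and -5.74 ± 0.37, and the Wnt-related genes LEF1 and APCDD1 by -5.04 ± 0.56 and -7.48 ± 0.58. FGF19 differed by -7.56 ± 1.48, with mesoderm libraries of day 4 between 6.02 and 196.5 CPM.

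**Figure D5:**
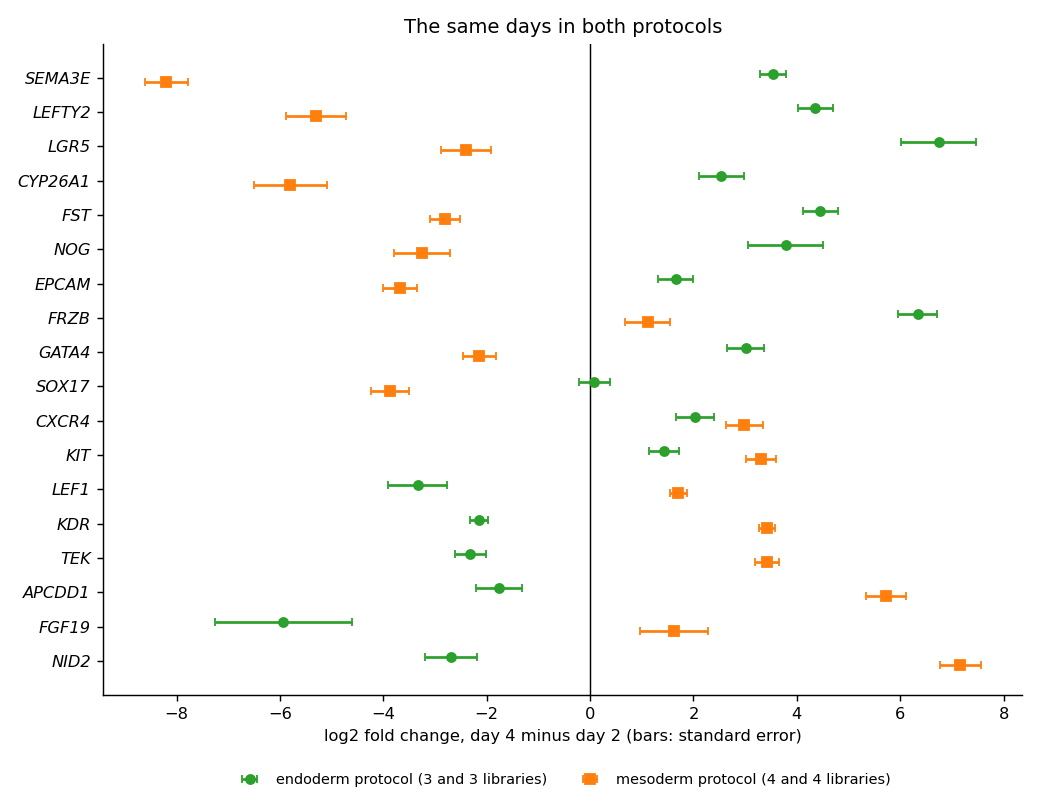
Log2 fold change of day 4 minus day 2 with its standard error for 18 genes in the endoderm protocol (green circles, 3 and 3 libraries) and the mesoderm protocol (orange squares, 4 and 4 libraries). SEMA3E, LEFTY2, LGR5, CYP26A1, FST, NOG, EPCAM and GATA4 lie on opposite sides of 0, higher in endoderm, as do NID2, FGF19, APCDD1, TEK, KDR and LEF1 with endoderm lower. FRZB, CXCR4 and KIT are above 0 in both, and SOX17 is at 0.08 ± 0.30 in endoderm. Of the 18 genes, 12 were chosen for large called differences with opposite changes.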

How the data were processed

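RNA-seq libraries were made from total RNA with a TruSeq kit, per the labels' protocols. The authors deposited raw fragment counts per gene, which were used here without change, and a table of other values, log2 of TMM-scaled RPKM plus 1, per the deposited file's own name. The submitters' processing notes name cutadapt 1.18, featureCounts, R 3.2.2 and the build GRCh38 and give no roles to them. No label or header names the aligner, the annotation or the strand setting. Names came from GENCODE 29, which held 58039 of the 58302 gene identifiers.

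Differences were tested by the quasi-likelihood method of edgeR 4.0.16 (R 4.3.3), with TMM factors, filterByExpr (minimum count 10, minimum total 15), 1 mean per group and Benjamini-Hochberg adjustment over all genes of the fit. The 12 endoderm libraries gave day 4 minus day 2, and 14 WT libraries of both protocols the difference of changes. Their common coefficients of biological variation were 0.138 and 0.18. Standard errors were taken as the size of the change over the root of its F statistic. A gene with 3 or fewer counts over a compared group has no fitted fold change. At 0 counts the group is set to 3 counts and a bound is given, otherwise the ratio with its exact (Clopper-Pearson) 95% counting interval. The procedure was tested on simulated data with known changes. No 2 libraries of a group were alike, as the chi-square per gene was 6.35 to 29.3.

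The comparison, the gene lists and the alternatives were chosen with earlier results of these data known. The genes named are list members, with preference for those of largest change that passed and for defining members, and outside the lists the 15 highest and 15 lowest calls with a mean of at least 8 CPM in the higher group and no overlap. Alternatives were median-of-ratios factors, no filter, DESeq2 1.42.0, limma 3.58.1 on the deposited log2 RPKM, the 6 libraries alone, a fold threshold of 1.5, the replicate block and each library left out. Some list members that entered the counts are not reported here by name.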

Additional observations from a re-analysis of the deposited data

Results flagged for a closer look

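The change from day 2 to day 4 was compared between the protocols for 19 genes by a test of the difference itself (edgeR's quasi-likelihood test), which called 45.3% of all genes tested. Of the 19, 12 were chosen from the lists for called changes in opposite directions with the largest called differences either way. That these 12 passed, and by large differences, therefore follows from the choice. The other 7 are endoderm markers chosen by name. CXCR4 did not pass, and FOXA1 passed but has no fitted fold, with 18 and 1 counts in the mesoderm protocol at day 2 and day 4. The other 17 passed. The log2 change was greater in the endoderm protocol by 11.73 ± 0.49 for SEMA3E, 9.67 ± 0.63 for LEFTY2, 9.15 ± 0.87 for LGR5, 8.34 ± 0.83 for CYP26A1, 7.26 ± 0.44 for FST and 7.03 ± 0.90 for NOG. It was also greater there by 5.33 ± 0.48 for EPCAM, 5.23 ± 0.63 for FRZB, 5.15 ± 0.47 for GATA4 and 3.95 ± 0.48 for SOX17. The difference was negative for NID2 (-9.86 ± 0.61), FGF19 (-7.56 ± 1.48), APCDD1 (-7.48 ± 0.58), TEK (-5.74 ± 0.37), KDR (-5.58 ± 0.23), LEF1 (-5.04 ± 0.56) and KIT (-1.88 ± 0.39).

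For the same genes, 32 sets of 4 mesoderm libraries with a mean of at least 1 CPM were examined, and in 6 of them 1 library lay far from the other 3. The rule sets the gap to the nearest library against the range of the 4. Chance gives about 1 such set in 20 if values are normally distributed, which was not tested for these CPM. The sets also share libraries and so are not independent. At day 4 the LGR5 libraries measured 6.81, 6.23, 24.3 and 3.57 CPM, those of FST 6.26, 15.5, 6.94 and 5.60, those of FGF19 6.02, 35.6, 196 and 30.7 and those of LEF1 265, 267, 342 and 258. At day 2 those of APCDD1 measured 18.1, 12.4, 12.3 and 11.8 CPM and those of EPCAM 123, 52.6, 121 and 121.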

How the results depend on the processing

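The number of genes changed between day 2 and day 4 was 3730 against a fold threshold of 1.5, with 1962 higher and 1768 lower. Leaving out each library in turn gave 7500 to 8941 genes, with 3928 to 4613 higher and 3572 to 4328 lower. Other size factors, no filter, DESeq2, limma-trend and the 6 libraries alone gave 8161 to 9686. Without replicate 3 of day 4 and replicate 2 of day 7, chosen after seeing the data, the number was 9305. The difference between protocols ran from 8776 to 10467 genes with each library left out, and from 9563 to 10635 under the other alternatives. With the replicate block the counts were 9276 (4871 higher and 4405 lower) and 9982 (4983 and 4999). Deviations of same-numbered libraries of day 2 and day 4 correlated at 0.103, 0.0863 and 0.221, so the numbers were not taken as pairs, and replicate 1 of day 2 correlated better with replicate 2 of day 4 (0.141). Of 193 named genes followed under the alternatives, 22 lost their call and 6 gained one under some alternative. For 14 of the 22 this was with the fold threshold of 1.5 alone, and none of the 193 changed sign with a call. The log2 RPKM values carry an added 1, which shrinks changes of low genes. The deposited depth limits genes with few counts, for which folds are bounds or intervals.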
